A study of Mus musculus with 6 samples.

Results

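The proteasome genes examined here are the protein-coding mouse genes whose symbols begin with Psma, Psmb, Psmc, Psmd, Psme or Psmg followed by a digit. Of 46603 genes measured, 49 matched that rule, and 48 had 10 or more counts in at least 3 of the 6 libraries. The gene left out was Psmb11, the beta subunit of the thymus-specific proteasome, which had 0 counts in all 6 libraries, where 3 counts would correspond to 0.118 to 0.154 CPM, the counts of a gene per 1000000 counts of its library. All 48 genes also passed the filter on low counts used for the statistical test, and each had at least 40 counts in every library, so no gene entered through 1 group alone. One of the 48, Psmc3ip, owes its symbol to a protein that binds the subunit Psmc3. It encodes a recombination factor and was kept apart from the subunits.

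The libraries came from bone marrow-derived macrophages of C57BL/6/J mice aged 7 weeks, cultured with 20% L929-conditioned medium, a source of macrophage growth factor. Cells detached at day 6 were reseeded and, 6 h later, given conditioned medium from cancer cells. That medium had its lipids for 3 libraries and lacked them for the other 3, and no untreated cells are among the samples. The labels leave out which cancer cells were used, how lipids were removed and how long the exposure lasted. They do not say whether the replicates were separate mice or cultures, and p-values thus cover only the variation among the 6 libraries, part or all of which could be technical. The question was how the lipids of the conditioned medium alter macrophage transcripts.

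The proteasome is the protease that degrades ubiquitin-tagged proteins. Its barrel-shaped core, the 20S particle, is built from rings of alpha subunits (Psma genes) around rings of beta subunits (Psmb genes). The catalytic beta subunits Psmb5, Psmb6 and Psmb7 carry the chymotrypsin-like, caspase-like and trypsin-like activities. Interferon-exposed and many immune cells can replace them by Psmb8, Psmb9 and Psmb10, which gives the immunoproteasome and changes the peptides available for MHC class I. A 19S cap of ATPases (Psmc genes) and other subunits (Psmd genes) binds, unfolds and feeds in the substrate, and activators such as PA28 (Psme1 and Psme2) can take the place of the cap. When proteasome activity is short, the transcription factor NRF1 (Nfe2l1) raises transcription of subunit genes through antioxidant response elements in their promoters.

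Libraries held 19429022 to 25323053 counts. Replicates varied beyond counting noise, with a chi-square per degree of freedom over 12767 genes of 2.67 to 4.78 between pairs with lipids and 7.78 to 19.9 between pairs without. All 7 macrophage markers examined were present, summing to 28760 to 29130 CPM with lipids and 29160 to 33970 CPM without, most of it Lyz2. These markers went both ways. Lyz2 and Cd68 were lower with lipids without overlap, Csf1r and Mertk overlapped, and without overlap Itgam (1498 to 1513 CPM against 998 to 1044), Adgre1 (2936 to 3007 against 2496 to 2806) and Fcgr1 (253 to 271 against 207 to 223) were higher. A fibroblast list (Col1a1, Col3a1, Pdgfra) summed to 49.0 to 55.1 CPM with lipids and 56.2 to 80.2 CPM without. A T cell list summed to 6.19 to 7.06 and 11.0 to 17.4 CPM, nearly all of it Cd4, with Cd3e and Cd8a at 0 in every library. The sums of the macrophage, fibroblast and T cell lists moved in the direction of the proteasome genes called below. The part of the marker lists in those results was not tested. B cell, NK cell, neutrophil, erythroid, dendritic cell, megakaryocyte and epithelial lists stayed at or below 1.17 CPM in sum in every library. In bulk samples fewer cells of a type and less RNA per cell cannot be told apart.

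Across the 48 genes, 4 were lower with lipids and 0 were higher, by edgeR's quasi-likelihood test at a Benjamini-Hochberg adjusted p of 0.05. These were Psmd8 of the 19S lid, the catalytic core genes Psmb6 and Psmb5, and Psmd10, an assembly chaperone of the cap. The 4 genes are 8.33% of the 48, near the 6.87% of all 12767 tested genes that were called lower, while 4.58% of all genes were called higher. At an unadjusted p of 0.05, 10 of the 48 genes were lower and 1 was higher, against 14.5% lower and 12.1% higher of all tested genes. DESeq2 called 5 lower and 0 higher, against 7.54% and 5.32% of the genes it tested. For 33 of the 48 the 95% interval of the log2 fold change lay within 0.3 of 0 (68.8%, against 35.9% of all tested genes). These shares also depend on interval width and were not matched for abundance. The largest SE was 0.18 among the 48 genes and 0.66 among all tested genes. The lowest group means were 2.08 and 0.158 CPM.

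**Figure D1:**
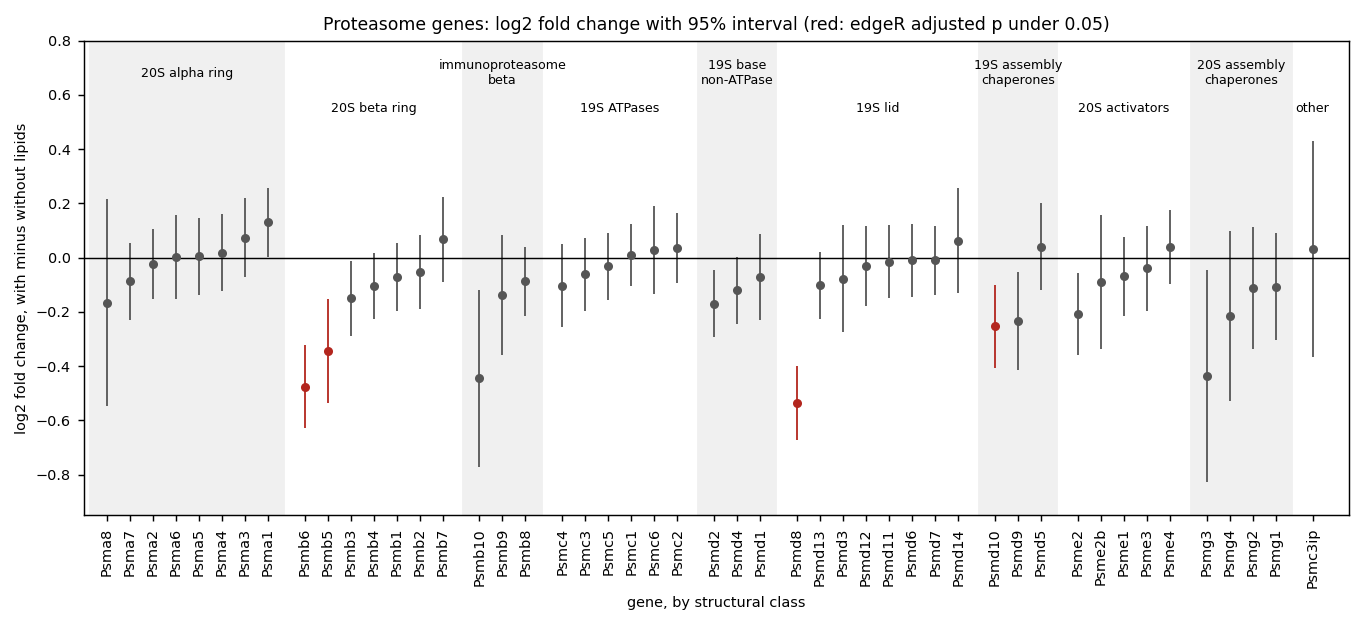
Log2 fold change (with minus without lipids) of the 48 proteasome genes on the vertical axis, grouped by structural class and ordered within a class, with 95% intervals from edgeR. The 4 genes in red passed an adjusted p of 0.05, and Psmd8 at -0.54 and Psmb6 at -0.48 lie furthest from 0.

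The promoters of the 4 called genes are shown because these genes moved in the same direction and because proteasome subunit promoters are known to carry the element that NRF1 binds. Each line gives the 250 bases before the RefSeq start site (GRCm38.p6), written 5′ to 3′ on the strand of the gene, with matches to the core of that element, TGACNNNGC on either strand, in capitals. The windows are chr14:54617996-54618245 on the minus strand for Psmb5, chr11:70525107-70525356 on the plus strand for Psmb6, chr7:29180674-29180923 on the minus strand for Psmd8 and chrX:140956712-140956961 on the minus strand for Psmd10.
Psmb5: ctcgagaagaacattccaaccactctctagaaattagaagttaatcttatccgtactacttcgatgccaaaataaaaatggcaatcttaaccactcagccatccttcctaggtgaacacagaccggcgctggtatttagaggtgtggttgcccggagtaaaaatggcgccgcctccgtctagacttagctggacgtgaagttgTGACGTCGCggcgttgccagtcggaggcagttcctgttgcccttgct
Psmb6: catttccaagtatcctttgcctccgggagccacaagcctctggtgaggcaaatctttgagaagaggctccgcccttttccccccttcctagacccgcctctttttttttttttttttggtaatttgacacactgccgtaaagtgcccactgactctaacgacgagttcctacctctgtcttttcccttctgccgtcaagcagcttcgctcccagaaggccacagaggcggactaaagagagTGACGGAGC
Psmd8: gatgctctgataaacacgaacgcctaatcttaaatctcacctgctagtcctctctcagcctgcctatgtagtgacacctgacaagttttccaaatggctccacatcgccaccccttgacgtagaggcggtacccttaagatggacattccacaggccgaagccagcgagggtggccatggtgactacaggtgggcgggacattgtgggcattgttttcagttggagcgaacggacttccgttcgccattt
Psmd10: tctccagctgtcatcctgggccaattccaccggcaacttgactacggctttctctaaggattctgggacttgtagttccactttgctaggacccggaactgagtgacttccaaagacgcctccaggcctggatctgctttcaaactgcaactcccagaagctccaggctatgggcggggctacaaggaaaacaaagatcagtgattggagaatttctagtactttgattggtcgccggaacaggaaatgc

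Psmb5 and Psmb6 held 1 match each, TGACGTCGC starting 47 bases before the start site and TGACGGAGC starting 9 bases before it. The windows of Psmd8 and Psmd10 held 0 matches. Of the 48 genes 40 had a window in the RefSeq table, and 5 of these (12.5%) held the motif, namely Psmb5, Psmb6, Psmc6, Psmd9 and Psmd12. Among all 32851 windows of that length 10.2% held it, and among the 12271 windows of tested genes 11.8%. The GC box GGGCGG, on either strand, was in the windows of 22 of the 40 genes (55.0%, against 57.0% for tested genes), Psmb6, Psmd8 and Psmd10 among them, and CCAAT in 14 (35.0%, against 35.3%), Psmd10 among them. A match describes the letters of the window and is not evidence of binding.

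Psmd8 encodes Rpn12, a small subunit of the lid, the part of the cap that removes ubiquitin chains. It lies on chromosome 7 (29174188 to 29180701, GRCm38, minus strand). Its level was 274, 272 and 261 CPM in replicates 1, 2 and 3 with lipids and 393, 414 and 363 CPM without. Every library with lipids was below every library without. The log2 fold change was -0.54 (SE 0.06, edgeR adjusted p = 0.000319), the largest among the 48 genes.

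Psmb6, the catalytic subunit with caspase-like activity, lies on chromosome 11 (70525367 to 70527858, plus strand). It was at 110 CPM, 110 CPM and 112 CPM with lipids and at 142, 169 and 150 CPM without. The groups did not overlap, and the spread was smaller with lipids (111 ± 0.91 CPM) than without (154 ± 14 CPM, SD, n = 3 each). Its log2 fold change was -0.48 (SE 0.07, edgeR adjusted p = 0.00143).

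Psmb5, the catalytic subunit with chymotrypsin-like activity and the main target of proteasome inhibitor drugs, lies on chromosome 14 (54614119 to 54618022, minus strand). It was at 33.8, 33.0 and 34.4 CPM with lipids and 40.3, 48.6 and 39.6 CPM without. All 3 libraries without lipids were higher, and replicate 2 stood above the other two. The log2 fold change was -0.34 (SE 0.09, edgeR adjusted p = 0.0278). The call was lost when replicate 2 without lipids was left out (adjusted p = 0.0959), when replicate 1, 2 or 3 with lipids was left out (0.103, 0.129 and 0.0907), with library totals alone (0.0587) and after a correction for GC content and length (0.0973, at a log2 fold change of -0.20).

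Psmd10, also called gankyrin, is a chaperone that holds cap ATPases during assembly and is not part of the finished particle. It lies on chromosome X (140948429 to 140956728, minus strand). Its level was 34.5, 33.0 and 31.9 CPM with lipids and 40.8, 38.4 and 39.2 CPM without, again with no overlap. The log2 fold change was -0.25 (SE 0.07, edgeR adjusted p = 0.0383), but only 6 of 14 alternative fits called it (adjusted p 0.00788 to 0.189), with the call lost without any of replicates 1 to 3 with lipids or replicates 2 or 3 without. Psmd8 and Psmb6 were called in all 14 alternative fits, with adjusted p up to 0.00444 for Psmd8 and 0.0159 for Psmb6.

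**Figure D2:**
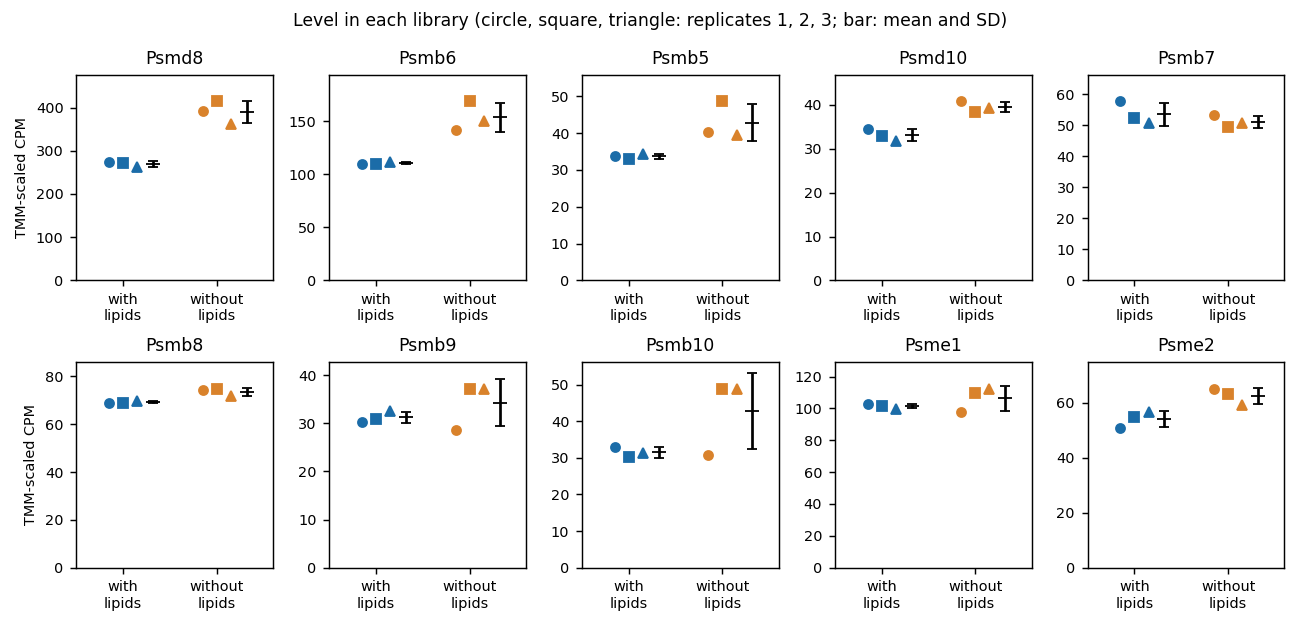
TMM-scaled CPM of 10 proteasome genes in each library, with symbols for replicates 1 to 3 and a bar for the mean and SD of each group (n = 3), each panel starting at 0. Psmd8, Psmb6, Psmb5 and Psmd10 show no overlap between groups, and neither do Psmb8 and Psme2, which did not pass the edgeR test. Replicate 1 without lipids lies among the libraries with lipids for Psmb10 (30.8 CPM).

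In the core, 2 of 15 genes were called lower, Psmb6 and Psmb5 (13.3%, against 6.87% of all tested genes). The core had a median log2 fold change of -0.05, against -0.0032 over all tested genes. Of the 8 alpha ring genes 0 passed the edgeR test, 1 was higher at an unadjusted p of 0.05, Psma1, and DESeq2 called 0. Their log2 fold changes ran from -0.17 to 0.13 with a median of 0.0034. Psma1, the alpha gene with the highest value, was at 183, 187 and 176 CPM with lipids and 173, 166 and 159 CPM without. Its groups did not overlap, with the libraries with lipids on top, but the log2 fold change of 0.13 (SE 0.06) did not pass (edgeR adjusted p = 0.179). It passed with library totals alone (0.0396) and when replicate 1 without lipids was dropped (0.03). Psma8, a testis-type alpha subunit, was the least abundant of the 48 genes, at 1.94, 2.42 and 1.87 CPM with lipids and 2.58, 2.23 and 2.25 CPM without.

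The 7 constitutive beta genes had a median of -0.11, and 6 of 7 had negative values. Psmb7, the third catalytic subunit, was at 57.7, 52.5 and 50.6 CPM with lipids and 53.3, 49.5 and 50.6 CPM without. These groups overlapped (log2 fold change 0.07, SE 0.07, edgeR adjusted p = 0.592), unlike those of the other two catalytic genes. Within each library the log2 ratio of Psmb6 to Psmb7 was 0.93, 1.07 and 1.14 with lipids and 1.41, 1.77 and 1.57 without, and that of Psmb5 to Psmb7 was -0.77, -0.67 and -0.56 with lipids and -0.40, -0.03 and -0.35 without. Neither ratio overlapped between groups, and neither depends on library scaling. The ratios were not corrected for GC content, which was 48.7% for Psmb7, 55.8% for Psmb6 and 56.6% for Psmb5. Psmb3 and Psmb4, structural subunits of the same ring, were below without overlap, at -0.15 (edgeR adjusted p = 0.157) and -0.11 (edgeR adjusted p = 0.25), and did not pass. Psmb1 and Psmb2 were at -0.07 and -0.05.

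Of the 3 immunoproteasome genes 0 passed the edgeR test, although all 3 had negative values (median -0.14). At an unadjusted p of 0.05, 1 of them, Psmb10, was lower, and DESeq2 also called Psmb10 alone. Psmb8 was at 69.0, 69.0 and 69.7 CPM with lipids and 74.1, 74.9 and 71.8 CPM without. The groups did not overlap, but the difference was small (log2 fold change -0.09, SE 0.06, edgeR adjusted p = 0.364). Psmb9 was at 30.2, 30.9 and 32.6 CPM with lipids and 28.7, 37.2 and 37.1 CPM without. Replicate 1 without lipids lay below all 3 libraries with lipids, and the log2 fold change was -0.14 (SE 0.10, edgeR adjusted p = 0.425).

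Psmb10 showed the same split more strongly. It was at 33.0, 30.1 and 31.4 CPM with lipids and 30.8, 48.9 and 48.8 CPM without. Replicate 1 without lipids was thus within the range of the libraries with lipids, and the other two were above all of them. The log2 fold change was -0.45 (SE 0.15, edgeR adjusted p = 0.0787). Without that library it was -0.63 (edgeR adjusted p = 1.23e-05), and Psmb9 then also passed, at -0.25 (edgeR adjusted p = 0.0117). That fit called 15.1% of its tested genes lower and 12% higher, against 6.87% and 4.58% with all 6 libraries. DESeq2 (adjusted p = 0.0279), the fit without a filter (2.73e-05) and the fit with the replicate number as a block (0.0361) called Psmb10 on all 6 libraries. Among the fits that did not were limma-voom (adjusted p = 0.108), library totals alone (0.112) and the correction for GC content and length (0.0647). In all, 4 of 14 alternative fits called Psmb10. Psmb8 and Psmb9 lie near each other on chromosome 17, at 34197721 to 34201454 and 34181987 to 34187764, and Psmb10 lies on chromosome 8 (105935735 to 105938444). Psmb9 shares 212 exonic bases with the peptide transporter gene Tap1 on the opposite strand, so their reads cannot be separated with certainty. The same holds for Psmb7, which shares 405 exonic bases with the kinase gene Nek6 on the opposite strand (6775 and 13602 counts in all), and Nek6 itself was at -0.18 on the log2 scale (SE 0.07, edgeR adjusted p = 0.11). The ratios that use Psmb7 or Psmb9 carry this uncertainty. Psmb5 shares 109 exonic bases with Mir686 on the same strand, which had 0 counts in all. Psmb8 shares 498 exonic bases with Gm20496 on the opposite strand, which had 39 counts in all. Reads lost to such overlaps were not measured. Other overlaps with tested genes on the opposite strand included Psmc3ip with Mlx (385 exonic bases), Psmd13 with Sirt3 (342), Psmd1 with Htr2b (252) and Psmc3 with Slc39a13 (215). Htr2b was itself lower (log2 fold change -1.10, edgeR adjusted p = 0.00408), with 419 counts in all against 27077 for Psmd1.

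Ratios within a library compared each immunoproteasome gene with the constitutive gene whose position it takes. The log2 ratio of Psmb8 to Psmb5 was 1.03, 1.07 and 1.02 with lipids and 0.88, 0.62 and 0.86 without, a difference of 0.25. That of Psmb9 to Psmb6 was -1.86, -1.84 and -1.78 with lipids and -2.31, -2.18 and -2.02 without, a difference of 0.35. In both pairs every library with lipids had the higher ratio. The log2 ratio of Psmb10 to Psmb7 was -0.81, -0.80 and -0.69 with lipids and -0.79, -0.02 and -0.05 without, a difference of -0.48 with overlap at replicate 1. The mean over the 3 immunoproteasome genes minus the mean over the 3 constitutive genes was -0.52 ± 0.03 with lipids and -0.56 ± 0.17 without (SD, n = 3 each). The difference of 0.04 was above the SD with lipids and below that without, the groups overlapped, and the mean joins pairs that went opposite ways. These ratios are descriptions and carry no test. Ratios of CPM between genes also depend on transcript length, and a length factor that is the same in every library cancels in the differences between groups. An effect of length or GC content that differs between libraries would not cancel, and the ratios were not corrected for it.

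**Figure D3:**
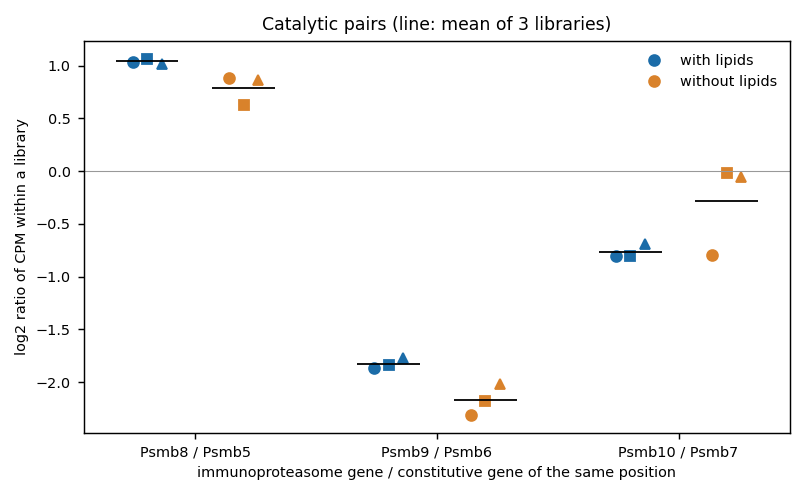
Log2 ratio of CPM, within each library, of an immunoproteasome gene to the constitutive catalytic gene of the same position, with symbols for replicates 1 to 3 and a line for the mean of 3 libraries. Psmb8/Psmb5 and Psmb9/Psmb6 are higher with lipids without overlap (differences 0.25 and 0.35), while Psmb10/Psmb7 overlaps at replicate 1 without lipids.

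In the 19S cap, 1 of 17 genes was called, Psmd8 (5.88% lower, against 6.87% of all tested genes), and the median was -0.03. For the other 16 genes the 95% interval of the log2 fold change lay within 0.3 of 0. The 6 ATPase genes, which form the ring that unfolds substrates, ran from -0.10 to 0.04 with a median of -0.01, and the groups overlapped for each of them. Psmc4 was at 102, 95.6 and 86.3 CPM with lipids and 102, 104 and 98.8 CPM without. Psmc2 was at 134, 140 and 136 CPM with lipids and 138, 134 and 127 CPM without. Psmc1 averaged 172 CPM (SD 2.0) with lipids and 171 CPM (SD 0.23) without.

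The ubiquitin receptors and scaffold of the base, Psmd1, Psmd2 and Psmd4, had values of -0.07, -0.17 and -0.12. Psmd2, the most abundant of the 48 genes by mean CPM over the 6 libraries (341, against 330 for Psmd8), was at 318, 324 and 319 CPM with lipids and 375, 366 and 342 CPM without. Its groups did not overlap, but it did not pass (SE 0.06, edgeR adjusted p = 0.0766). It passed when replicate 3 without lipids was dropped (adjusted p = 0.0377) and with GC content and length corrected for (0.0458). Apart from Psmd8, the 7 other lid genes ran from -0.10 to 0.06. Psmd14, the deubiquitinase of the lid, had the highest value, at 104, 108 and 103 CPM with lipids and 115, 99.5 and 87.9 CPM without, where the libraries without lipids lay on both sides of the others. The difference between Psmd8 and the other lid genes was not tested.

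The 3 cap assembly chaperones were Psmd10, described above, Psmd9 and Psmd5. Psmd9 was below without overlap at -0.23 (SE 0.08, edgeR adjusted p = 0.092) and passed when replicate 1 without lipids was dropped (0.0209). Psmd5 was at 55.6, 53.0 and 50.0 CPM with lipids and 54.5, 52.1 and 47.7 CPM without, and these groups overlapped throughout. The 4 chaperones of core assembly, Psmg1 to Psmg4, all had negative values and 0 passed the edgeR test (1 had an unadjusted p under 0.05, Psmg3, and DESeq2 called 0). Psmg3 was at 3.62, 4.69 and 5.85 CPM with lipids and 5.31, 6.73 and 7.03 CPM without, with overlap, a log2 fold change of -0.44 and a wide error (SE 0.18, edgeR adjusted p = 0.145). It passed with no filter on low counts (0.0298) and when replicate 1 without lipids was dropped (0.0291).

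Of the 5 activator genes 0 passed the edgeR test, 1 was lower at an unadjusted p of 0.05, Psme2, and DESeq2 called 0. Psme1, the alpha chain of PA28, was at 103, 102 and 99.9 CPM with lipids and 97.5, 109 and 112 CPM without. Psme2, its beta chain, was at 50.7, 54.7 and 56.5 CPM with lipids and 65.0, 63.0 and 59.1 CPM without. The groups overlapped for Psme1 (log2 fold change -0.07, edgeR adjusted p = 0.552) and not for Psme2 (-0.21, SE 0.07, edgeR adjusted p = 0.0787). Psme2b, a single-exon copy of Psme2, was at 6.92 to 8.68 CPM. Reads shared between the copies were not measured, so the counts of both may be uncertain. Psme4, the activator PA200, was at 144, 152 and 148 CPM with lipids and 154, 139 and 139 CPM without. Psme3, the nuclear activator PA28 gamma, was at -0.04.

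Groups did not overlap for 15 of the 48 genes (31.2%), against 30.5% of all tested genes. In 13 of them the libraries with lipids were below (27.1%, against 15.8% of all tested genes) and in 2, Psma1 and Psma3, above (4.17%, against 14.7%). Negative log2 fold changes were found in 35 genes and the median was -0.07. With library totals in place of TMM scaling the median of the 48 genes was 0.0046 and 25 had positive values, and the median over all tested genes went from -0.0032 to 0.0734, so the 48 genes lay 0.07 log2 below all genes under either scaling. The same change of scaling moved all called genes from 585 higher and 877 lower to 1241 higher and 596 lower. Genes with a higher GC content tended to lower values, with a Pearson correlation across genes of -0.558 over the 48 and -0.246 over 12720 tested genes. Genes are not independent replicates. After the correction for GC content and length the median of the 48 was -0.03, Psmd8 was at -0.46 and Psmb6 at -0.33, and both remained called.

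Scaled by transcript length, levels differed widely between genes whose products are equally abundant in the particle. As CPM per kilobase, averaged over the 6 libraries, Psmd8 was the highest at 214, and it led in both groups (175 with lipids, 253 without). Psmb6 was next at 166, but this place rests on the libraries without lipids (193, against 138 for Psma1). With lipids Psmb6 was at 139, below Psma1 at 151. Subunits of the constitutive core other than Psma8 lay between 13.1 (Psma3) and 166. Cap subunits lay between 28.9 (Psmd11) and 214. The immunoproteasome genes were at 43.9 (Psmb8), 28.3 (Psmb10) and 24.2 (Psmb9), against 166, 45.2 and 42.6 for Psmb6, Psmb7 and Psmb5. The core assembly chaperones were at 6.27 to 12.0. These values rest on 1 transcript per gene. With coding length in its place Psmd8 remained the highest at 311 over the 6 libraries. Psma1 was next at 221, though without lipids it was at 211, below Psmb6 at 215. Psma3 (48.8) and Psmb5 (48.3) were then the lowest core genes apart from Psma8, with Psmb5 the lower of the pair with lipids and Psma3 without.

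**Figure D4:**
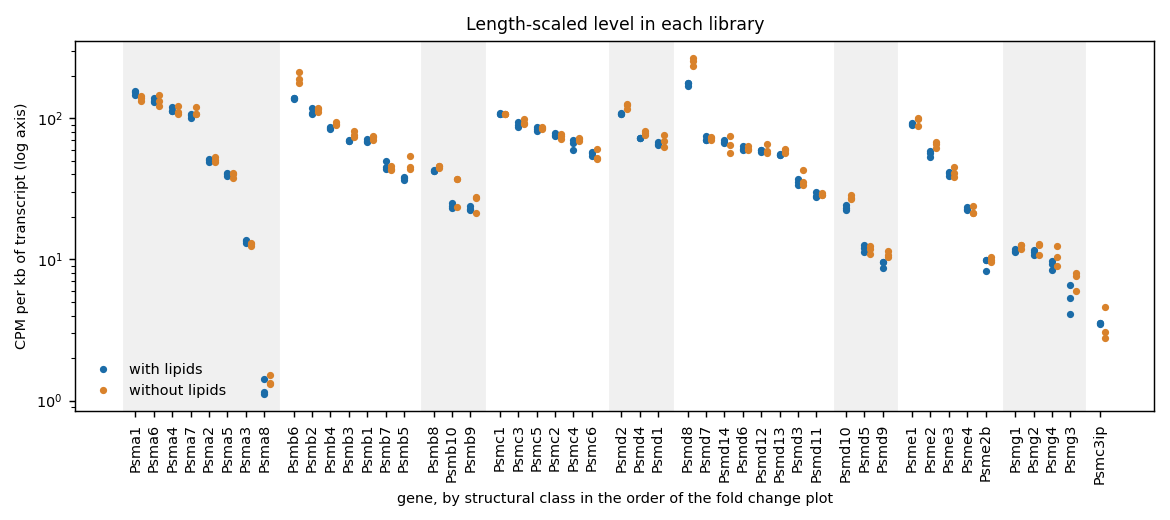
CPM per kilobase of transcript in each library, on a log axis, for the 48 genes in their structural classes, with libraries with lipids in blue and without in orange. Psmd8 is the highest in both groups, at 214 on average over the 6 libraries, Psmb6 (139 with lipids and 193 without) lies below Psma1 with lipids and above it without, and Psma8 is the lowest at 1.31.

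Genes that work with the proteasome but carry other names were taken from a list of 45 symbols, including older synonyms, of which 39 were tested. Of these 5 were lower with lipids and 0 higher (12.8%, against 6.87% of all tested genes called lower). The pooled share rests mostly on the MHC class I list, where 4 of 12 genes were lower. The other lists gave 0 of 10 partners, 1 of 7 genes of the NRF1 axis and 0 of 10 ubiquitin genes. Of 10 assembly factors, cap partners and regulators 0 passed the edgeR test, 1 had an unadjusted p under 0.05, Zfand5, and DESeq2 called 0. Pomp, the chaperone that completes the core, averaged 113 CPM (SD 6.8) with lipids and 116 CPM (SD 2.2) without. Usp14, the deubiquitinase bound to the cap, averaged 119 CPM in both groups (SD 1.4 with lipids and 14 without).

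Among 7 genes of the NRF1 axis 1 passed, as lower with lipids (14.3%, against 6.87% of all tested genes). Nfe2l1 itself was at 251, 239 and 243 CPM with lipids and 291, 337 and 299 CPM without. The groups did not overlap, and the log2 fold change was -0.34 (SE 0.07, edgeR adjusted p = 0.0071). The call was lost in 1 of 14 alternative fits, in which replicate 2 with lipids was dropped (adjusted p = 0.0552). Nfe2l2, which encodes the related factor NRF2, was at -0.15 (SE 0.05, edgeR adjusted p = 0.0947). Ddi2, the protease that activates NRF1, was at 0.08, Ngly1, which removes its sugars, at 0.15, and Vcp, which extracts it from the membrane, at 0.01.

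Of 10 ubiquitin genes, activating enzymes and shuttle factors 0 passed the edgeR test, 1 had an unadjusted p under 0.05, Ubb, and DESeq2 called Ubb. The polyubiquitin gene Ubb, at -0.25 (SE 0.08, edgeR adjusted p = 0.067), was below without overlap. Of 12 genes of the MHC class I peptide pathway and its regulators 4 were lower (33.3%, against 6.87% of all tested genes). That list was chosen with earlier results of these data known. H2-D1 was at -0.42 (edgeR adjusted p = 0.00721), the peptide-loading chaperone Tapbp at -0.32 (0.0213), H2-K1 at -0.27 (0.0338) and the class I light chain B2m at -0.21 (0.0401). H2-D1 was called in all 14 alternative fits, and Tapbp, H2-K1 and B2m in 9, 8 and 8, with each call lost when any library with lipids or replicate 2 without lipids was left out. H2-D1 and H2-K1 resemble each other and may share reads. Tap1, the peptide transporter, was at -0.11 (SE 0.07, edgeR adjusted p = 0.34), and Irf1, a transcription factor that induces immunoproteasome genes, at -0.08 (SE 0.09, edgeR adjusted p = 0.626).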

How the data were processed

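The authors deposited raw counts per Ensembl gene, 1 table of 46603 rows per library and 0 rows for unassigned reads. The build GRCm38.p4 and the tools TopHat2 2.1.0, DESeq2 and HTSeq are listed in the submitters' processing notes with no role for each. No source used here gives the strand setting or annotation release. Symbols, coordinates and transcripts (APPRIS principal, then longest coding sequence) came from GENCODE M21 on GRCm38, which matched 46091 identifiers. Promoters came from RefSeq (GRCm38.p6).

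The test was edgeR 4.0.16 (R 4.3.3), run on the counts of 12767 genes (filterByExpr with minimum count 10 and minimum total 15, TMM factors, quasi-likelihood F test, two-sided, Benjamini-Hochberg, threshold 0.05). SE came from the F statistic. Intervals cover the spread between libraries and floors only counting error. The steps were tested on simulated data. The genes, classes and lists were chosen with earlier results of these data known. Values per library are given for called genes, the catalytic genes, PA28 and the extremes of each class; related genes are those called and a fixed few. One related gene is not reported here and was left out of the list's counts. Genes called under an alternative were added after their values were seen.

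Alternatives were other scalings, filters, DESeq2 1.42.0, limma-voom (limma 3.58.1), the replicate number as a block and each library left out; a GC and length correction (loess offsets, span 0.5, 12720 genes) was chosen after seeing the data.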

Additional observations from a re-analysis of the deposited data

How the results depend on the processing

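Of the 4 called genes, Psmd8 and Psmb6 passed in all 14 alternative fits, Psmb5 in 8 and Psmd10 in 6, and none changed sign. With library totals alone 2 of the 48 genes were lower and 1 higher, against 4.67% and 9.72% of all tested genes. The median log2 fold change of the 48 turned to 0.0046. After the GC and length correction that median was -0.030. Without the filter 2252 genes were called in all, against 1462. Leaving out 1 library gave 2 to 8 lower and 0 or 1 higher genes of the 48. Of all genes tested in those fits 3.27% to 15.1% were lower and 1.69% to 12% higher (642 to 3541 called in all). The largest numbers and shares came when replicate 1 without lipids was dropped. The difference in the mean log2 ratio of immunoproteasome to constitutive catalytic genes was 0.04 and ranged from -0.0522 to 0.115 when 1 library was left out, turning to -0.0522 when that same replicate was dropped; from summed CPM it was 0.14. The cause of these changes was not tested. With the replicate number as a block 4 of the 48 genes were lower and 0 higher, against 7.34% and 5.6% of all tested genes. In all 1652 genes were called, with Psmb10 gained and Psmd10 lost (edgeR adjusted p = 0.0645). Correlations of deviations were -0.011, -0.079 and 0.171 for equal replicate numbers and ran from -0.126 to 0.146 for unequal numbers. So few values cannot show whether equal numbers mark paired samples, and the labels do not say. With 3 libraries a group, SEs of 0.05 to 0.18 log2 limit what could be detected.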
